A study of Mus musculus with 10 samples.

Results

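The genes of the tumour necrosis factor (TNF) ligand and receptor superfamily were examined in maps of H3K27me3, histone H3 trimethylated at lysine 27, in mouse bone marrow-derived macrophages. They were 41 of the 20665 protein-coding genes on chromosomes 1 to 19 (mm10), of which 16 encode ligands and 25 encode receptors. A gene was included if its symbol is Tnfsf or Tnfrsf with a number, or if it is Ngfr, Fas, Fasl, Cd27, Cd40, Cd70, Lta, Ltb, Ltbr or Tnf. For each gene, cover is the percent of its body, with 5 kb on either side, that lay under called H3K27me3 regions in a library. Body and flanks together are called the window.

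Ligands of this family are mostly membrane proteins that act as trimers, and their receptors recruit TRAF adaptors that activate NF-kappa-B or, where the receptor carries a death domain, can start cell death. Macrophages are a main source of TNF itself, and CD40, OX40 ligand and BAFF link them to T and B cells. H3K27me3 is laid down by Polycomb repressive complex 2 and is found over genes that are kept silent.

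All animals were C57BL/6 mice, and the macrophages were derived from marrow in 7 days of culture under M-CSF (20 ng/ml). KO cells were Eif2ak3 fl/fl x LysMcre, and WT cells were Eif2ak3 fl/fl, so both genotypes carry the floxed gene of the stress kinase PERK, and the WT cells carry no Cre. LysMcre is expressed from the lysozyme 2 locus in myeloid cells. KO M2 and WT M2 cells were given 20 ng/ml IL-4 for 24 h, with 2 libraries per genotype. KO M1 and WT M1 cells were given LPS (20 ng/ml) with interferon-gamma (50 ng/ml) for the same time, again with 2 libraries per genotype. KO M0 and WT M0 cells were unstimulated, with 1 library per genotype and hence no replicate. The age of the animals is not given in the labels.

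The 10 libraries held 12.6 to 20.9 megatags and 32320 to 39658 called regions, and 156 to 250.1 Mb of chromosomes 1 to 19 lay under regions. WT M2 replicate 1 stood apart, with 179 Mb against 213 to 250.1 Mb in the other M2 libraries. Both WT replicate 1 libraries also had 31.3 Mb (M1) and 52.9 Mb (M2) covered on the X chromosome, against 0.687 to 0.990 Mb in the other 8 libraries. The estimated fragment length was 372 bp in KO M0 and 352 bp in WT M0, but only 178 to 190 bp after stimulation. M0 values were left out of limma and of the tests between states. They entered only the exact permutation test of genotype, in which labels were permuted within each state. H3K27me3 cover does not check the deletion, and the genotypes rest on the labels. No cover in any library was found at 7 of 12 macrophage markers and 3 of 8 B cell markers. The count was 0 for the 12 T and NK cell, 6 granulocyte and 7 stromal markers. At least 50% in at least 1 library was reached by 8 T and NK cell, 4 B cell, 2 granulocyte and 4 stromal markers. The macrophage list is left out of this second count. The 7 housekeeping genes measured had no cover.

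Cover over the family ranged from complete to none. Each library was made from many cells, in which a mark on fewer cells and a weaker mark on every cell cannot be told apart. In all 10 libraries at least 50% of the window was covered at 5 of the 41 genes (12.2%, against 7.92% of all 20665 genes), the receptors Ngfr, Tnfrsf25, Tnfrsf13c and Tnfrsf9 and the ligand Cd70. A further 4 genes, Cd40, Tnfrsf19, Tnfsf4 and Tnfsf13b, reached 50% in some libraries (9.76%, against 10.5% of all genes). Another 4, Tnfrsf8, Tnfrsf10b, Tnfrsf12a and Tnfsf11, had cover under 50% in all 10 libraries (9.76%, against 16.3% of all genes), and 15 had cover under 50% in some libraries (36.6%, against 21.2%). The remaining 13 had no cover in any library (31.7%, against 44.0% of all genes). Counted by library, 5 to 8 of the 41 genes reached 50%, or 12.2% to 19.5%, against 10.5% to 15.5% of all genes.

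**Figure D1:**
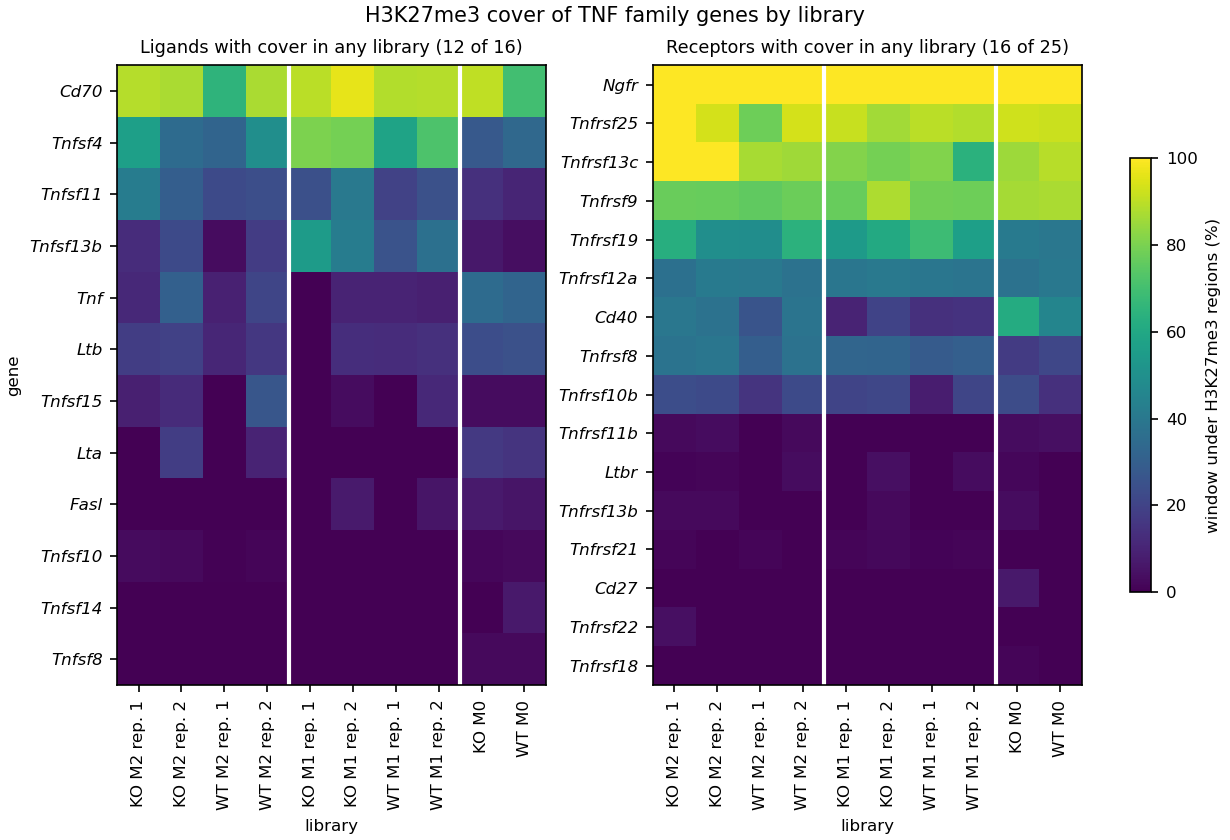
Percent of the window under H3K27me3 regions (colour, 0 to 100) for the 12 ligand and 16 receptor genes with cover in any of the 10 libraries, with genes in rows by falling mean and libraries in columns. Ngfr is fully covered in every library, Tnfsf4 and Tnfsf13b are most covered in M1, and Cd40 is most covered in M0.

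By role, 2 of 6 receptors with a death domain were at 50% or more in all libraries, Ngfr and Tnfrsf25, and 2 of the 6, Tnfrsf1a and Fas, had no cover. Among 14 genes of T cell costimulation, 10 had some cover, 3 of them at 50% or more in all libraries, and 4 had none, Tnfsf9, Tnfsf18, Tnfrsf4 and Tnfrsf14. Among 5 genes of B cell survival, Tnfrsf13c was covered throughout and Tnfsf13b in part, while Tnfsf13, the APRIL gene, and Tnfrsf17, which encodes its receptor BCMA, had no cover. Of the 3 genes that control bone resorption, Tnfsf11 and Tnfrsf11b had some cover and Tnfrsf11a, which encodes the RANK receptor of osteoclast precursors, had none. Of the 4 decoy or secreted receptors, Tnfrsf23 and Tnfrsf26 had no cover, Tnfrsf22 had 4.02% in KO M2 replicate 1 alone, and Tnfrsf11b did not exceed 4.07%.

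Ngfr, which encodes the neurotrophin receptor p75 (chromosome 11, 95568818 to 95587698), had 100% of its window covered in all 10 libraries, within a single region of 48.9 to 159.9 kb. Tnfrsf25, the receptor of the ligand encoded by Tnfsf15 (chromosome 4, 152115528 to 152120119), had 100% and 93.6% in KO M2 and 77.9% and 93.7% in WT M2. In M1 it had 91.5% and 86.3% in KO and 89.6% and 88.5% in WT, and in M0 92.8% in KO and 92.1% in WT. Its body was fully covered in the 8 stimulated libraries, so the differences lay in the flanks, where the window also holds parts of Plekhg5 and Espn.

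Tnfrsf9, a costimulatory receptor of activated T cells (chromosome 4, 150920155 to 150946104), had 77.2% and 76.6% in KO M2 and 75.7% and 77.5% in WT M2. Its M1 values were 76.7% and 87.8% in KO and 78.3% and 77.8% in WT, and in M0 86.7% in KO and 87.4% in WT. KO M1 replicate 2 and the M0 libraries were thus the highest. In these 3 libraries its body was fully covered.

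Tnfrsf19, a receptor known from the nervous system and from epithelial stem cells (chromosome 14, 60963834 to 61046855), had 62.5% and 49.4% in KO M2 and 48.9% and 64.2% in WT M2. Cover in M1 was 54.4% and 60.7% in KO and 68.7% and 56.4% in WT, and in M0 41.2% in KO and 39.8% in WT. The libraries of both genotypes and both stimulated states overlapped, and both M0 libraries lay below all 8 of them. The cover was split into 7 to 10 regions per library.

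The receptors through which TNF acts were free of called regions. Tnfrsf1a (chromosome 6, 125349723 to 125362483) and Tnfrsf1b (chromosome 4, 145212368 to 145246870), the receptors of TNF, had 0% in all 10 libraries, as did Fas, the death receptor of Fas ligand (chromosome 19, 34290647 to 34327775). The shortest called region over the family was 1.0 kb long, which is the size set for the calling. A mark too weak to be called would not be seen. Ltbr, the lymphotoxin beta receptor, had 0% to 3.94%, all of it outside its body, in a window that also holds part of Scnn1a. Tnfrsf12a, the receptor of TWEAK, had 37.0% to 40.7% in all libraries, none of it over the body, in a window that also holds parts of Thoc6, Hcfc1r1 and Cldn6.

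Promoters, taken from 250 bases before to 50 bases after the annotated start (RefSeq, GRCm38.p6, the mm10 build), were matched for 32 of the 41 genes. No promoter was matched for Cd40, Cd70, Tnfrsf10b, Tnfrsf11b, Tnfrsf22, Tnfrsf26, Tnfsf4, Tnfsf9 or Tnfsf12. Where 2 starts were listed, the first listed was used. At least 50% of the promoter was covered in all 10 libraries at 6 genes (18.75%, against 17.7% of 16457 genes with a promoter in the table): Ngfr, Tnfrsf8, Tnfrsf13c, Tnfrsf19, Tnfrsf25 and Tnfsf11. At 8 genes it was covered in 1 to 9 libraries and at 18 in none, against 2245 and 11293 of the 16457 genes. The median number of CpG dinucleotides was 13 in the promoters covered throughout, 7 in those covered in some libraries and 8.5 in those never covered, against 17, 7 and 15 over all genes. Tnfrsf11a, with 43 CpG dinucleotides, and Ltbr, with 23, were never covered, while the promoter of Tnfsf11, with 7, was covered in every library.

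The 8 promoters below were chosen after their values were seen, as examples of each pattern, and CG dinucleotides are in capitals. Ngfr (chr11:95587649-95587948, minus strand), Tnfrsf13c (chr15:82224331-82224630, minus strand) and Tnfsf11 (chr14:78307994-78308293, minus strand) were covered in all 10 libraries. Ltb (chr17:35194257-35194556, plus strand) was covered in 9 libraries, all but KO M1 replicate 1. Lta (chr17:35205302-35205601, minus strand) was covered in KO M2 replicate 2 and both M0 libraries, and Tnfsf8, the ligand of CD30 (chr4:63861235-63861534, minus strand), in both M0 libraries alone. Tnf (chr17:35201958-35202257, minus strand) and Tnfrsf1a (chr6:125349473-125349772, plus strand) were covered in none.
Ngfr: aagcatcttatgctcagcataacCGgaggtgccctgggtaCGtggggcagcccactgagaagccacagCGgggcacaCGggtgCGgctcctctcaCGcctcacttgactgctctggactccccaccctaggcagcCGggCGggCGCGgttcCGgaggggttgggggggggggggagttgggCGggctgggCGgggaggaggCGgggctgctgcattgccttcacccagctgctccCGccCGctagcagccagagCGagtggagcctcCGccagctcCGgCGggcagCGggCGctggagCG
Tnfrsf13c: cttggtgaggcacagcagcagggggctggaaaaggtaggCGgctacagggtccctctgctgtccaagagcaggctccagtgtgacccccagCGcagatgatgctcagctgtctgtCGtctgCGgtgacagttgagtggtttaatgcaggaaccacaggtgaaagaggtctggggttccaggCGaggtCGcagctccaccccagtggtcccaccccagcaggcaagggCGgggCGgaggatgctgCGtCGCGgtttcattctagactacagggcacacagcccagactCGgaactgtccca
Tnfsf11: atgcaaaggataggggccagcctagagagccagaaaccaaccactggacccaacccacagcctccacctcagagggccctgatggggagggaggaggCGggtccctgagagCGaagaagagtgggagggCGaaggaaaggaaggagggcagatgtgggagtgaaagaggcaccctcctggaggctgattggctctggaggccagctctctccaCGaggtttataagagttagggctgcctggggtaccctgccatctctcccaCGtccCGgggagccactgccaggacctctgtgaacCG
Ltb: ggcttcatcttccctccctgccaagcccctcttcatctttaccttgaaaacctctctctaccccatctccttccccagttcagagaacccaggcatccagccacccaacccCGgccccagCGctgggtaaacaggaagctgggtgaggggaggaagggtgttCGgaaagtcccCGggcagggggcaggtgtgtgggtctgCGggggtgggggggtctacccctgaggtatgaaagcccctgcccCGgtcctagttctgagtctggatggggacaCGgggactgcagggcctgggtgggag
Lta: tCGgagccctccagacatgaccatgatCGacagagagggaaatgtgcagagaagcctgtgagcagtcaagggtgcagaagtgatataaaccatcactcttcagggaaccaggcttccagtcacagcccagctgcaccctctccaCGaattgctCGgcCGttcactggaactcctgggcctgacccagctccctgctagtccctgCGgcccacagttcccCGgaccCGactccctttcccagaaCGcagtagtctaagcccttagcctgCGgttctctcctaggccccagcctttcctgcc
Tnfsf8: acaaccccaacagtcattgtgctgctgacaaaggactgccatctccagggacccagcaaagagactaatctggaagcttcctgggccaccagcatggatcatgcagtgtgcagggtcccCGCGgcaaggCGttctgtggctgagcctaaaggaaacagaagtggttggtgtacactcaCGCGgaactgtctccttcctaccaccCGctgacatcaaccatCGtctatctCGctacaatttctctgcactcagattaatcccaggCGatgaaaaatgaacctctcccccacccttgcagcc
Tnf: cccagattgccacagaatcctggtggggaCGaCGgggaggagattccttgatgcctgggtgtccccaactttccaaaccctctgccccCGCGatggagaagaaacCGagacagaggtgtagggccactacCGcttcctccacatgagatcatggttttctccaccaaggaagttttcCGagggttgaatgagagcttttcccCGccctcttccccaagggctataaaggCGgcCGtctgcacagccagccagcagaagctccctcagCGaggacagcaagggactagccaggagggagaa
Tnfrsf1a: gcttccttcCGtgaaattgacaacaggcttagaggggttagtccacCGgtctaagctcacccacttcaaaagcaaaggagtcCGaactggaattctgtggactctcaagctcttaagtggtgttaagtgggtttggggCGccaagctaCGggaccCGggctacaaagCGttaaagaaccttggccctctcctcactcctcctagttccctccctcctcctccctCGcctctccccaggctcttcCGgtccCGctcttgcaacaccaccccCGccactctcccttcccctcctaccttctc

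Covered promoters in both M0 libraries and at most 1 of the 8 stimulated libraries were those of Fasl, Lta, Tnfrsf9 and Tnfsf8, which are 4 of the 32 (12.5%, against 1.81% of all 16457 genes). The pattern was chosen after its values were seen and has no replicate within a genotype in M0. Fasl, the ligand of Fas, was covered at its promoter in KO M1 replicate 2 as well, and so was Tnfrsf9 at the upstream of its 2 starts. At the downstream start of Tnfrsf9 the promoter was covered in all 10 libraries. No promoter of the family was covered in all 8 stimulated libraries and neither M0 library, a pattern found at 0.225% of all 16457 genes.

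**Figure D2:**
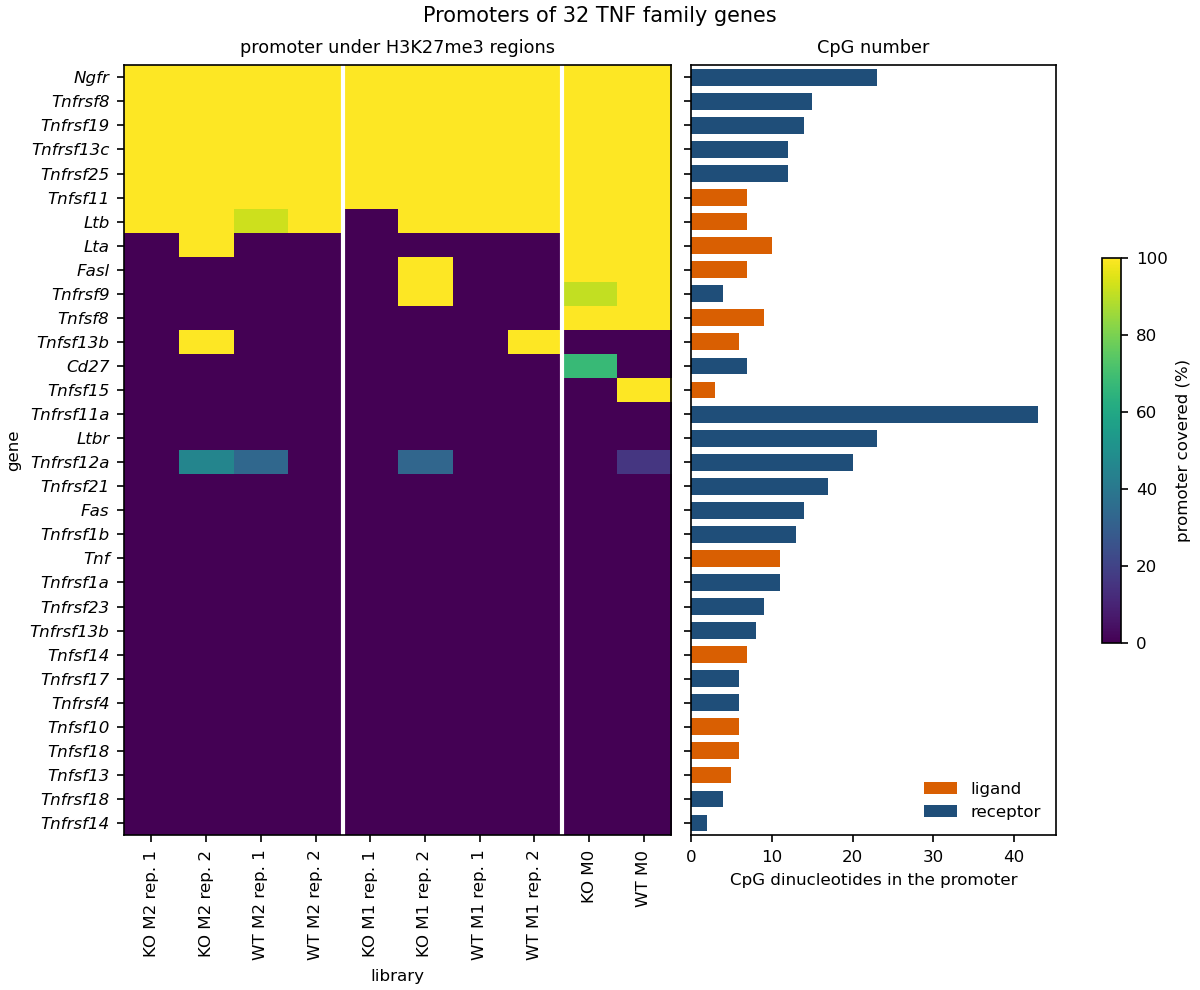
Left, percent of the promoter (300 bases) under H3K27me3 regions (colour) in each of the 10 libraries for 32 genes; right, the number of CpG dinucleotides in it, for ligands and receptors. The 6 promoters covered in all libraries hold 7 to 23 CpG dinucleotides and the 18 covered in none hold 2 to 43.

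The genes Ltb, Tnf and Lta lie side by side on chromosome 17, and their windows share sequence, so they are not independent: those of Tnf and Lta share 8.84 kb and those of Ltb and Tnf 6.94 kb. The Tnf body (35199367 to 35202007) had 0% cover in all 10 libraries. Cover in its window came from regions that overlapped Ltb or Lta and in part reached beyond those gene bodies. The products of Ltb and Lta form the membrane-bound lymphotoxin heterotrimer. Over the body of Ltb (35194507 to 35196305), cover was 73.3% and 81.7% in KO M2 and 56.9% and 68.4% in WT M2. It was 0% and 62.8% in KO M1, 61.0% and 54.8% in WT M1, and 100% in both M0 libraries. All libraries but KO M1 replicate 1 thus had more than 50% of the Ltb body covered, and both M0 libraries were the highest. Over the body of Lta (35203165 to 35205578), cover was 0% and 81.4% in KO M2 and 0% and 52.1% in WT M2, and it was 0% in all 4 M1 libraries. The M0 libraries had 80.7% in KO and 70.4% in WT. In M2 the replicate 1 and replicate 2 libraries differed in both genotypes. Over the windows of both genes the values of M2 and M1 overlapped, and neither difference passed limma. The limma adjusted p was 0.667 for the Ltb window (SE 3.32) and 0.723 for the Lta window (SE 4.70). The differences over these windows, 6.11 and 7.06 percentage points, were for Ltb 2.83 without KO M1 replicate 1 and 9.39 without KO M1 replicate 2, and for Lta 2.53 without KO M2 replicate 2, 4.53 without WT M2 replicate 2 and 11.6 without KO M2 replicate 1.

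**Figure D3:**
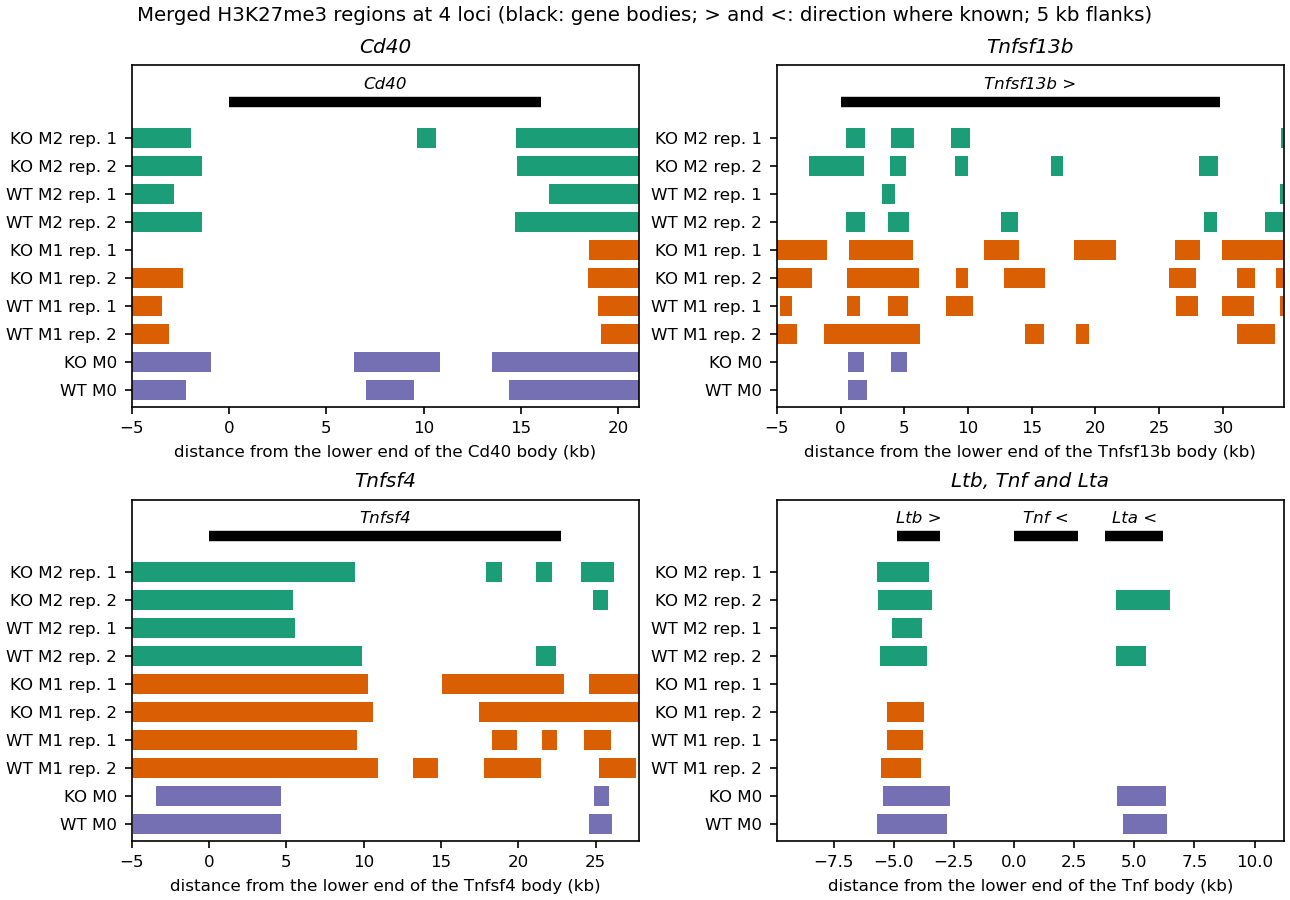
Merged H3K27me3 regions in each library (rows) over the windows of Cd40, Tnfsf13b, Tnfsf4 and the Ltb, Tnf and Lta cluster, against the distance in kb from the lower end of the named gene body. Black bars are gene bodies and colours mark the states M2, M1 and M0. The Tnf body is free of regions in all 10 libraries, and the Cd40 body is free of them in the 4 M1 libraries.

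The study set IL-4 against LPS with interferon-gamma. Between M2 and M1, 5 genes had values that did not overlap. Cd40, Tnfrsf13c and Tnfsf10 had higher values in M2 (3 of the 25 family genes with any cover in the stimulated libraries, with 1.1% of the 11044 genes tested doing so), and Tnfsf4 and Tnfsf13b had lower values in M2 (2 of 25, with 2.17% of the genes tested). None of the 25 passed limma with Benjamini-Hochberg adjustment over all 11044 genes, where 0.444% of genes were called higher and 0.0724% lower in M2. The smallest adjusted p was 0.0919 in limma, for Tnfsf10, and 6 of the 25 had an unadjusted p under 0.05, as did 9.74% of all genes tested. The exact permutation test with the same adjustment called 0 genes of the whole table. The other 16 family genes had no cover in these libraries and were not tested.

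Cd40 (chromosome 2, 165055614 to 165071654), the receptor through which T cells activate macrophages, had 39.6% and 37.8% in KO M2 and 26.1% and 38.3% in WT M2. KO M1 had 9.81% and 20.3% and WT M1 14.1% and 14.7%, so every M2 library lay above every M1 library. The M0 libraries were higher still, at 61.4% in KO and 45.7% in WT. Means were 35.5% ± 6.31 over the 4 M2 libraries and 14.7% ± 4.29 over the 4 M1 libraries (SD), a difference of 20.8 percentage points (SE 3.82, limma adjusted p = 0.194). The exact two-sided permutation p was 0.0286, the smallest that 4 libraries against 4 allow. Any gene whose M2 and M1 values do not overlap gets this p, so it adds nothing to the lack of overlap. When each library kept only its best-scored regions up to the same total length (equal covered length), the difference was 8.30 (limma adjusted p = 0.721), and it was 9.24 with the upper 50% of regions by score. Over the body alone Cd40 had 14.3% and 7.81% in KO M2 and 0% and 8.37% in WT M2, with 0% in all M1 libraries, 43.1% in KO M0 and 25.7% in WT M0. In M1 the regions at Cd40 therefore lay only in the flanks, and no other gene has its body in this window. The cover of the upper flank came from a region that ran on past the window. That region was 71.8 to 205 kb long in the stimulated libraries, 13.5 kb in KO M0 and 12.3 kb in WT M0.

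Tnfrsf13c, which encodes the BAFF receptor of B cells (chromosome 15, 82221742 to 82224380), had 100% in both KO M2 libraries and 86.9% and 85.7% in WT M2. In M1 it had 81.4% and 79.1% in KO and 81.2% and 63.7% in WT, and in M0 85.2% in KO and 89.4% in WT. All M2 libraries lay above all M1 libraries, with means of 93.2% ± 7.92 over the 4 M2 libraries and 76.4% ± 8.48 over the 4 M1 libraries (SD). The difference was 16.8 percentage points (SE 4.16, limma adjusted p = 0.325; exact permutation p = 0.0286). Without WT M1 replicate 1 it was 21.2, and at equal covered length it was 11.6. The sign turned with the upper 50% of regions by score, where the difference was -10.2. With all regions kept, the body was fully covered in every stimulated library, so the difference of 16.8 lay in the flanks.

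Tnfsf13b, which encodes BAFF, the survival factor that macrophages supply to B cells (chromosome 8, 10006229 to 10036000), had 12.6% and 22.6% in KO M2 and 3.28% and 17.6% in WT M2. In M1 it had 55.0% and 42.1% in KO and 25.4% and 36.8% in WT, and in M0 6.39% in KO and 3.79% in WT. All M2 and both M0 libraries lay below all M1 libraries. Means were 14.0% ± 8.26 over the 4 M2 libraries and 39.8% ± 12.3 over the 4 M1 libraries (SD), a difference of -25.8 percentage points (SE 5.66, limma adjusted p = 0.270; exact permutation p = 0.0286). At equal covered length it was -16.2, and with the upper 50% of regions by score -14.1. Its regions were short, and no single region in the window exceeded 8.71 kb. The densest region held 38.8 tags per kb (normalised to 10 megatags) in KO M0 and 38.6 in WT M0. It held 14.7 to 23.4 in the M1 libraries and 13.8 to 20.6 in the M2 libraries. Cover takes no account of this density, which was not tested. With all regions kept, the genes of BAFF and of its receptor thus had differences of opposite sign between the states. With the upper 50% of regions by score both differences were negative, at -14.1 for Tnfsf13b and -10.2 for Tnfrsf13c.

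Tnfsf4, the gene of OX40 ligand, which costimulates T cells (chromosome 1, 161395438 to 161418206), had 56.5% and 34.8% in KO M2 and 32.2% and 49.5% in WT M2. In M1 it had 80.4% and 79.1% in KO and 58.0% and 72.0% in WT, and in M0 27.8% in KO and 33.6% in WT. Again all M2 and M0 libraries lay below all M1 libraries. Means were 43.3% ± 11.7 over the 4 M2 libraries and 72.4% ± 10.3 over the 4 M1 libraries (SD), a difference of -29.1 percentage points (SE 7.21, limma adjusted p = 0.325; exact permutation p = 0.0286). A region entered the body from the lower flank in every library. In M1 it ended 9.59 to 10.9 kb into the body, against 5.41 to 9.92 kb in M2 and 4.63 and 4.67 kb in M0.

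Tnfsf10, which encodes TRAIL and was chosen after its values were seen, had at most 2.99% cover, all of it in a flank. KO M2 had 2.99% and 2.36% and WT M2 0.736% and 1.55%, while all M1 libraries had 0%, KO M0 had 1.71% and WT M0 2.36%. The difference was 1.91 percentage points (SE 0.268). The cover came from 1 region of 1.0 to 3.32 kb, which could run past the end of the window, in each of the 6 libraries that had any. Without WT M2 replicate 1 the difference was 2.11 percentage points and passed limma (adjusted p = 0.0363), while at equal covered length it was 1.16 (adjusted p = 0.721).

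Tnf and Cd70 had the next largest differences. The Tnf window had 11.5% and 30.5% in KO M2 and 9.21% and 20.8% in WT M2, against 0% and 10.0% in KO M1 and 9.79% and 8.90% in WT M1, with 35.0% in KO M0 and 32.2% in WT M0. Means were 18.0% ± 9.72 over the 4 M2 libraries and 7.18% ± 4.81 over the 4 M1 libraries (SD), and the states overlapped (difference 10.8 percentage points, SE 5.56, limma adjusted p = 0.637, exact permutation p = 0.0857). It was 6.09 without KO M2 replicate 2, and 5.46 at equal covered length. As given above, this cover came from the regions at Ltb and Lta.

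Cd70, the ligand of CD27 (chromosome 17, 57145997 to 57149777), had 88.7% and 87.2% in KO M2 and 65.2% and 87.1% in WT M2. The M1 libraries had 89.7% and 96.4% in KO and 88.6% and 88.7% in WT, and in M0 90.5% in KO and 69.7% in WT. The states overlapped (difference -8.82 percentage points, SE 5.32, limma adjusted p = 0.704, exact permutation p = 0.0571), and the body was fully covered in every stimulated library. Without WT M2 replicate 1 the difference was -3.33, and at equal covered length its sign turned, to 38.2 (SE 28.2).

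**Figure D4:**
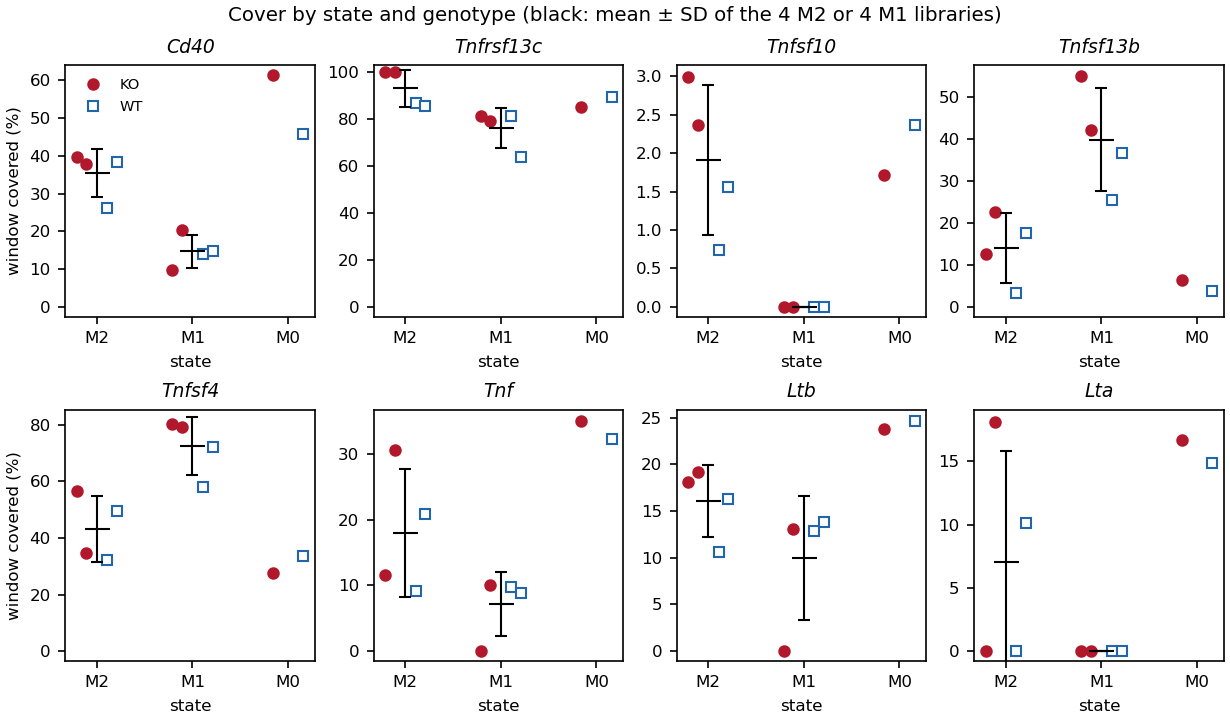
Percent of the window covered (vertical axis, a scale of its own for each gene) in M2, M1 and M0 for 8 genes, with KO as filled circles and WT as open squares, 1 point per library. Black marks are the mean ± SD of the 4 M2 or 4 M1 libraries. Cd40, Tnfrsf13c and Tnfsf10 lie higher in M2 and Tnfsf13b and Tnfsf4 lower, with no overlap between the states.

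Loss of PERK in IL-4 macrophages was the next question. In M2, 0 of the 25 genes passed limma (Benjamini-Hochberg adjusted p of at least 0.294), and 2 had an unadjusted p under 0.05, as did 10.4% of all genes tested. Over all genes 0.715% were called higher and 0.127% lower in KO M2. Values of the 2 KO libraries lay above both WT libraries at 7 of the 25, Cd70, Ltb, Tnfrsf8, Tnfrsf13b, Tnfrsf13c, Tnfsf10 and Tnfsf11, and below both at 0. Among all genes tested 27.3% were separated upwards and 10.2% downwards, so the family's 7 of 25 is close to that background. Of the 25 genes, 17 had positive and 4 negative differences, with a median of 2.71 percentage points, against a median of 1.25 over all genes tested, 63.3% of which had positive differences.

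The largest difference was at Tnfrsf13c, at 100% in both KO M2 libraries and 86.9% and 85.7% in WT M2 (13.7 percentage points, SE 5.88, limma adjusted p = 0.529). Tnfsf11, which encodes RANK ligand, the inducer of osteoclasts (chromosome 14, 78277446 to 78308043), had 41.8% and 30.0% in KO M2 and 22.4% and 23.9% in WT M2 (12.8 percentage points, SE 6.80, limma adjusted p = 0.595). Both genes had higher cover in each KO M2 library than in either WT M2 library, as did Cd70 (11.8 percentage points, SE 7.52, limma adjusted p = 0.595). Tnfrsf25 (11.0 percentage points, SE 5.88), Tnfsf13b (7.15, SE 8.01) and Cd40 (6.54, SE 5.40) had positive differences with overlapping libraries, and the limma adjusted p was at least 0.595 for these 3. At Cd40, Cd70, Tnfrsf25, Tnfsf11 and Tnfsf13b, but not at Tnfrsf13c, the lowest M2 library was WT M2 replicate 1. This library had the least cover on chromosomes 1 to 19 of the stimulated ones. It was also the lowest M2 library at Ltb, Ltbr, Tnf, Tnfrsf8, Tnfrsf9, Tnfrsf10b, Tnfrsf11b, Tnfrsf19, Tnfsf4, Tnfsf10 and Tnfsf15. Without it the difference in M2 was 0.813 percentage points at Cd70, 0.411 at Cd40, 3.13 at Tnfrsf25 and -0.0151 at Tnfsf13b, and it was 14.3 at Tnfrsf13c. Without WT M2 replicate 2 it was 22.8 at Cd70, 18.9 at Tnfrsf25, 14.3 at Tnfsf13b and 12.7 at Cd40. The difference at Tnfsf13b was 12.2 without KO M2 replicate 1 and 2.13 without KO M2 replicate 2, and that at Tnfsf11 was 6.90 without KO M2 replicate 1.

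**Figure D5:**
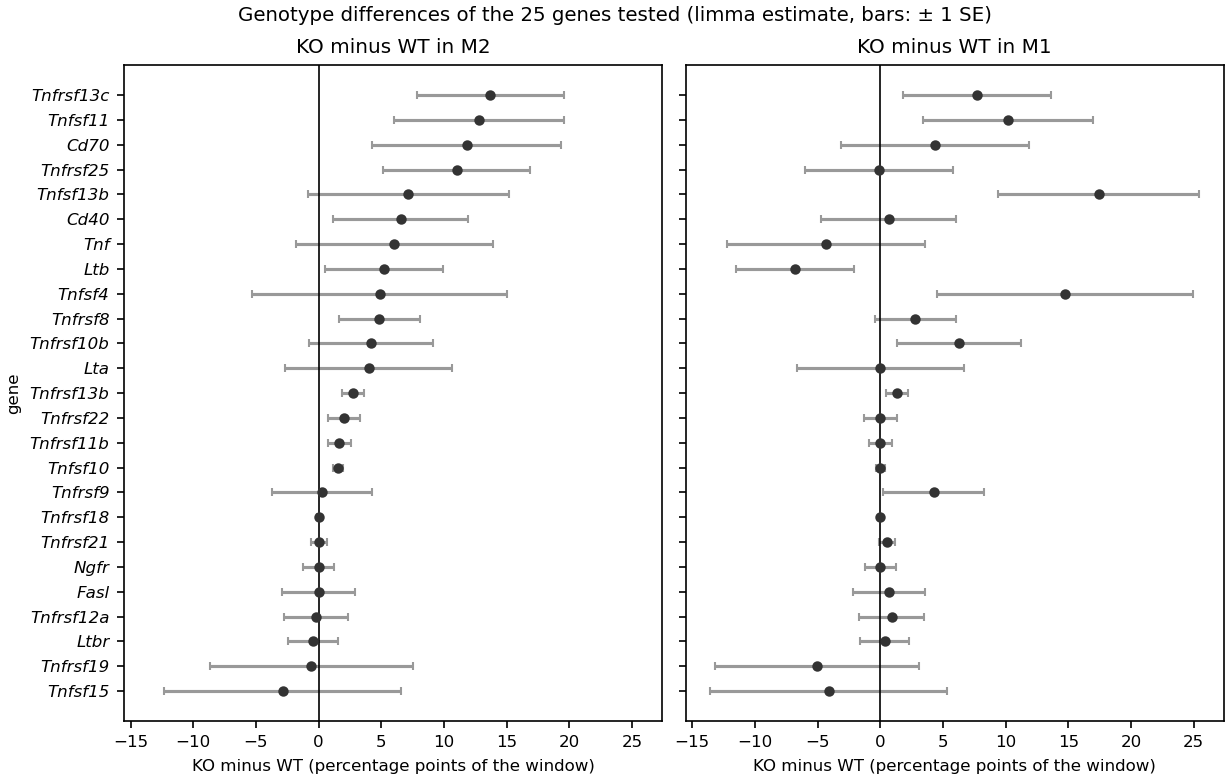
Difference in cover between KO and WT, in percentage points of the window, for the 25 family genes tested, in M2 (left) and M1 (right). Points are limma estimates and bars are ± 1 SE. Tnfrsf13c, Tnfsf11 and Cd70 have the largest positive estimates in M2, and Tnfsf13b and Tnfsf4 in M1.

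In M1, 0 of the 25 genes passed limma (adjusted p of 1 for all after Benjamini-Hochberg adjustment) and 0 had an unadjusted p under 0.05, against 2.72% of all genes tested, with 0 genes called higher and 0.0181% called lower over the whole table. The KO libraries lay above both WT libraries at 6 of the 25, Cd70, Tnfrsf8, Tnfrsf12a, Tnfrsf21, Tnfsf4 and Tnfsf13b, and below both at 0, against 15.1% and 7.69% of all genes tested. Tnfsf13b had 55.0% and 42.1% in KO M1 and 25.4% and 36.8% in WT M1, a difference of 17.4 percentage points (SE 8.01, limma adjusted p = 1). Tnfsf4 had 80.4% and 79.1% in KO M1 and 58.0% and 72.0% in WT M1, a difference of 14.7 percentage points (SE 10.2, limma adjusted p = 1). Tnfsf11 had 24.4% and 40.4% in KO M1 and 19.6% and 24.9% in WT M1, which overlapped (10.2 percentage points, SE 6.80, limma adjusted p = 1). The differences in M1 were 11.0 at Tnfsf13b without KO M1 replicate 1 and 7.72 at Tnfsf4 without WT M1 replicate 1, and at Tnfsf11 2.16 without KO M1 replicate 2 and 18.2 without KO M1 replicate 1. With 2 libraries per genotype, an exact permutation test within a state cannot give a p under 0.333.

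Over both stimulated states 0 of the 25 genes passed limma with Benjamini-Hochberg adjustment (smallest adjusted p = 0.505, for Tnfrsf13b, and 2 with an unadjusted p under 0.05, as had 8.31% of all genes), against 0.371% of all genes called higher and 0.0905% lower in KO. At 0 of the 25 were the 4 KO libraries all above or all below the 4 WT libraries, against 2.44% and 0.779% of all genes tested. Tnfsf11 averaged 34.2% ± 8.36 in KO and 22.7% ± 2.32 in WT (SD, n = 4 each), a difference of 11.5 percentage points (SE 4.81, limma adjusted p = 0.637), which was 0.212 at equal covered length (SE 6.00). With the M0 libraries, at 13.9% in KO and 10.3% in WT, its exact permutation p within states was 0.0556. Cd70 averaged 90.5% ± 4.08 in KO and 82.4% ± 11.5 in WT (SD, n = 4 each), a difference of 8.08 percentage points (SE 5.32, limma adjusted p = 0.723), which was 2.59 without WT M2 replicate 1. Its exact permutation p within states, with M0, was 0.0278, the smallest that the 10 libraries allow, and adjusted over the whole table the permutation test called 0 genes. The difference between the genotype effects in M2 and M1 was past the threshold at 0 of the 25 genes in limma (smallest adjusted p = 0.804, 1 with an unadjusted p under 0.05, as had 5.67% of all genes), against 0.389% of genes called positive and 0.0453% negative.

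The authors' deposited table of regions enriched in KO M2 touched 4 of the 41 windows, against 3.59% of all genes. In the authors' deposited table the region at Tnfsf13b lay inside the gene (chromosome 8, 10015487 to 10015887), with a log2 fold of 2.29 (p = 0.000827, false discovery rate 0.147). In the authors' deposited table the region at Tnfsf4 lay 2.36 kb outside the body (chromosome 1, 161420561 to 161420961), with a log2 fold of 1.61 (false discovery rate 0.158). The authors' deposited table places the region at Tnfsf11 inside the gene (chromosome 14, 78281731 to 78282131), with a log2 fold of 1.49 (false discovery rate 0.196). At these 3 positions called regions covered 100% in both KO M2 libraries and 0% in both WT M2 libraries. In M1 the Tnfsf13b position was covered in KO M1 replicate 2 and WT M1 replicate 1 alone. The Tnfsf11 position had 21.4% and 100% in KO M1 and 0% in both WT M1 libraries, and the Tnfsf4 position had 100% in both KO M1 libraries and 100% and 70.6% in WT M1. At the Tnfsf13b and Tnfsf11 positions both M0 libraries had 0%, while at the Tnfsf4 position both had 100%. The last region in the authors' deposited table lay 3.37 kb from the body of Tnfrsf10b, a TRAIL receptor with a death domain (chromosome 14, 69763701 to 69764101), with a log2 fold of 1.26 (false discovery rate 0.196), and this position was covered in all 10 libraries. Over its whole window Tnfrsf10b had 23.7% and 22.4% in KO M2 and 15.2% and 22.6% in WT M2, 20.6% and 21.2% in KO M1, 8.14% and 21.0% in WT M1, 23.1% in KO M0 and 14.0% in WT M0. The lowest value in each stimulated state was thus that of WT replicate 1. The authors' deposited tables of regions enriched in WT M2, KO M1 and WT M1 touched 0 of the 41 windows, against 0.3%, 0.208% and 0.106% of all genes.

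Other genes of TNF signalling were set beside the family, with no test of the difference. These 41 genes included adaptors, kinases, ubiquitin enzymes and NF-kappa-B subunits. The list also held the receptor genes Edar and Relt and the protease genes Adam17 and Casp8. Of the 41, 24 had no cover in any library, against 13 of the 41 ligands and receptors and 44.0% of all genes. Only Traf4 reached 50% in any library. Of the 16 tested, 0 passed limma between M2 and M1, in the genotype comparisons in M1 and over both states, or in the interaction. In M2 the adaptor gene Traf4 was called higher in KO, at 43.6% and 48.9% in KO M2 and 17.4% and 21.4% in WT M2 (26.9 percentage points, SE 2.79, limma Benjamini-Hochberg adjusted p = 0.0300). Its other libraries had 23.9% and 26.0% in KO M1, 21.0% and 22.2% in WT M1, 55.3% in KO M0 and 56.4% in WT M0. KO M2 thus lay between the other stimulated libraries and M0. The Traf4 call held without trend and robust moderation (limma adjusted p = 0.0298). It did not hold over the body without flanks (limma adjusted p = 0.571), with a replicate block (0.0615) or that block with crossed numbers (0.110). Nor did it hold with a mean cover of at least 5% (0.143) or at equal covered length (0.449). In these settings the difference stayed at 26.9 percentage points, except over the body, where it was 14.4. With 1 library left out, the call held in some fits and not in others. The difference was then 29.5 without KO M2 replicate 1, 24.2 without KO M2 replicate 2, 24.9 without WT M2 replicate 1 and 28.9 without WT M2 replicate 2. With the upper 50% of regions by score it was -19.4.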

How the data were processed

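H3K27me3 chromatin immunoprecipitation sequencing was deposited for 10 libraries. The submitters' processing notes name the mm10 build and, with no role or order, DiffBind 2.0.2, HOMER 4.8, Bowtie2 2.4.2, deepTools 3.5.1 and SAMtools 1.10. Regions were called per library with HOMER findPeaks in region mode (size 1000 bp, minimum distance 2500 bp, false discovery rate 0.001), with no input control in the command, per the file headers. The signal of a region is the authors' tag count normalised to 10 megatags, and its score and its clonal fold ratio are also the authors', per the file headers. Signal and score only ranked or described regions within a list, and the tag density at Tnfsf13b is given by library without a test. The authors' deposited tables of differential regions give log2 concentrations, log2 folds, p-values and false discovery rates. A positive fold stands for more signal in KO, while no source used here gives the libraries or the model behind them.

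Regions of a library were merged, and cover was computed for 20665 protein-coding genes (RefSeq GRCm38.p6) with 5 kb flanks, using scipy 1.17.1, pandas 2.3.3 and numpy 2.4.6 in Python 3.11.15. Exon and intron position was not analysed here. limma 3.58.1 (R 4.3.3, trend and robust moderation) was fitted to the percent cover of the 11044 genes with any cover in the 8 stimulated libraries, with 4 group means and 5 contrasts and Benjamini-Hochberg adjustment over all genes tested at 0.05. Exact two-sided permutation used 70 arrangements for M2 against M1 and 72 for genotype within states. The series' design text calls the M1 and M2 libraries biological replicates, so p-values reflect how much those cultures vary. The cover step was tested on simulated windows, 300 of 300 of which matched a base-by-base count, and the tests were run on simulated data. Figures were drawn with matplotlib 3.10.9.

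The family members, the pathway and marker lists and the tests were chosen with earlier results of these data known. Values in every library were given for Tnf, Lta, Ltb, Tnfrsf1a, Tnfrsf1b, Cd40 and Fas, for the 6 largest differences between M2 and M1, the 6 largest genotype differences in M2 and the 3 largest in M1, for the 6 highest mean covers, and for genes touched by the authors' regions. Alternatives were the body without flanks, the upper 50% of regions by score, equal covered length, other scales, filters and moderation, a replicate block, other thresholds of cover, and leaving out libraries. The cover of 1 macrophage marker is not reported here.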

Additional observations from a re-analysis of the deposited data

Results flagged for a closer look

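Of 27 sets of 4 libraries tested for a library that stands apart (Dixon's test at 95%), 10 had one. For independent sets chosen without their values, about 1 in 20 would have one. These sets overlap, their genes were chosen in part for large differences, and the count of genes at 50% moves only by whole numbers. The share of flagged sets is therefore no test against chance. In M2 it was WT M2 replicate 1 at Cd40 (26.1%, against 37.8% to 39.6% in the other 3 libraries), Cd70 (65.2%, against 87.1% to 88.7%) and Tnfrsf10b (15.2%, against 22.4% to 23.7%), each time the lowest. This library also had the least cover on chromosomes 1 to 19 of the 8 stimulated ones, 179 Mb, and its part in these values was not tested. In M1, WT M1 replicate 1 was low at Tnfrsf10b (8.14%, against 20.6% to 21.2%) and WT M1 replicate 2 at Tnfrsf13c (63.7%, against 79.1% to 81.4%). KO M1 replicate 2 was high at Cd70 (96.4%, against 88.6% to 89.7%) and Tnfrsf9 (87.8%, against 76.7% to 78.3%). KO M1 replicate 1 had 0% over the Ltb window (12.8% to 13.9% in the others) and 0% over the Tnf window (8.90% to 10.0%), which hold the same region at Ltb in the others, and it had 8 family genes at 50% cover or more where the other 3 had 7.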

How the results depend on the processing

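Between M2 and M1 57 genes of the whole table were called. The count was 122 on the arcsine square root scale, 96 over the body without flanks, 8 with a mean cover of at least 5%, 0 with the upper 50% of regions by score, 380 without both WT number 1 libraries, 0 by exact permutation and 74 to 354 when 1 library was left out. The counts of 93 genes for KO minus WT in M2, 2 in M1, 51 over both states and 48 for the interaction moved likewise. On the arcsine scale they were 10 in M1, 100 over both and 86 for the interaction, and over the body 13, 84 and 76. With a mean cover of at least 5% they were 4 in M2, 0 in M1, 1 over both and 0 for the interaction, and with the upper 50% by score 0 in each. Equal covered length gave 19 in M1. Without trend and robust moderation they were 0 in M1, 33 over both and 30 for the interaction, and without both WT number 1 libraries 170 in M2, 150 in M1, 275 over both and 239 for the interaction. Exact permutation gave 0 over both. With 1 library left out they ranged from 64 to 671 in M2, 0 to 81 in M1, 67 to 335 over both and 79 to 324 for the interaction.

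Family genes called were 0 in each comparison. There was 1 between M2 and M1 on the arcsine scale (Tnfsf10) and 1 without both WT number 1 libraries (Tnfrsf13c), and 1 in M2 between genotypes at equal covered length (Tnfrsf13b). With 1 library left out there were 0 to 2 between M2 and M1 and between genotypes in M2, and 0 to 1 in M1, over both states and in the interaction. These were Tnfrsf11b, Tnfrsf13b, Tnfrsf13c, Tnfrsf22, Tnfsf10 and Cd70, the last by 22.8 percentage points in M2 without WT M2 replicate 2 (limma adjusted p = 0.0490). At equal covered length 95 of the 10667 genes tested were called between genotypes in M2. The 5 genes at 50% cover in all libraries became 0 with the upper 50% by score or at equal covered length, 8 at a threshold of 25% and 3 at 75%. Shares of all genes are not given for these counts. Counted by library, 24.4% to 29.3% of the family reached 25%, against 17.2% to 22.6% of all genes. For 75% the shares were 9.76% to 14.6%, against 5.75% to 9.56% of all genes. The upper 50% by score held 54.7% to 62.4% of the covered length.

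Signs turned in these cases. With the upper 50% by score the differences were -10.2 for Tnfrsf13c and 38.2 for Cd70 between M2 and M1, -14.0 for Tnfsf11 and -39.0 for Tnfrsf25 between genotypes in M2, and -10.5 for Tnfsf4 in M1. At equal covered length they were 38.2 for Cd70 between M2 and M1, -36.3 for Tnfrsf13c and -9.75 for Tnfsf11 in M2, and -13.0 for Tnfsf4 in M1. Without WT M2 replicate 1, alone or with WT M1 replicate 1, the genotype difference of Tnfsf13b in M2 was -0.0151, and with 1 library left out it ranged from -0.0151 to 14.3.

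The labels do not say that replicate numbers pair the libraries, and not every correlation of same-numbered libraries' deviations was over 0.1: it was 0.03 (KO M2 with KO M1), 0.161 (WT M2 with WT M1), -0.105 (KO M2 with WT M2), -0.043 (KO M1 with WT M1), -0.077 (KO M2 with WT M1) and 0.37 (WT M2 with KO M1). With a replicate block the counts were 0 between M2 and M1, 43 in M2, 0 in M1, 0 over both states and 0 for the interaction. With the numbers crossed in KO M2, an alternative chosen after seeing the data, the block gave 48 in M2. Limits are the 2 libraries per genotype and state, the single M0 libraries, and a measure of called length that holds no height of signal.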
